A study of Mus musculus with 65 samples.

Results

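The Hes, Hey and Id genes encode transcriptional repressors of the helix-loop-helix class, and 9 of them were followed here: Hes1, Hes3, Hes5, Hes6, Hey1, Id1, Id2, Id3 and Id4. They were chosen by name, with earlier results of these data known, and all 9 of the 25239 genes in the expression table were found and passed the filter on low values. They were measured by bulk RNA sequencing of 65 libraries in 25 groups, made from HM1 mouse embryonic stem (ES) cells differentiated towards the ventral spinal cord. All cultures received bFGF, LGK, the Wnt agonist CHIR99021, the TGFβ receptor inhibitor SB-431542 and the BMP receptor inhibitor DMH1 before day 3, and retinoic acid at 100 nM from day 3 onwards. Neuromesodermal progenitors (NMPs), the shared precursors of spinal cord and trunk mesoderm, were collected on day 3 and gave 3 libraries. From day 3 the cells were exposed to 0, 10, 100 or 500 nM of SAG, which activates Smoothened in place of the Sonic hedgehog (Shh) ligand. On days 4, 5 and 6 fixed cells positive for SOX2 were sorted by intracellular staining into p3, pMN, p2 and p0-1 progenitors, named from ventral to dorsal, where p0-1 is p0 and p1 taken as one gate. p3 and pMN were sorted at 100 and 500 nM, p2 at 10 and 100 nM, and p0-1 at 0 and 10 nM, so the cell types differ in SAG as well as in identity. There are 16 libraries of day 4, 24 of day 5 and 22 of day 6. The cells come from 1 ES cell line, and the replicates are independent differentiations of it.

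Notch receptors, once bound by a Delta or Jagged ligand on a neighbouring cell, release an intracellular fragment that joins RBPJ on DNA and switches on Hes and Hey genes. The Hes proteins recruit Groucho corepressors. Hes and Hey proteins hold down proneural genes such as Neurog2, and so keep neural tube cells in the progenitor state. Hes6 is the exception in the family, since it does not answer to Notch in the usual way and counteracts Hes1. Id proteins lack a DNA-binding region. They capture E proteins, the partners that proneural factors need, and their genes are well known targets of BMP signalling through SMAD factors.

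The promoters of some members are shown first. The windows hold 250 bases before and 50 after the transcription start in RefSeq (build GRCm38.p6, which has the coordinates of mm10), and windows were found for Hes5, Hes6, Id2, Id3 and Id4. They were searched on both strands for TGGGAA, the core of the RBPJ site, for CACNAG, the N box bound by Hes proteins, and for GGCGCC, a GC-rich SMAD element. Of 32851 promoters of the same length, 25.6% held TGGGAA, 42.5% held CACNAG and 11.9% held GGCGCC. The Hes5 window, chr4:154960673-154960972 on the plus strand, is shown with both matches to the RBPJ core in capitals, the first of them on the opposite strand. The Id3 and Id4 windows, chr4:136143572-136143871 and chr13:48260866-48261165, both on the plus strand, are shown because Id3 was the Id gene called between cell types and Id4 the one called between days 5 and 6, and capitals mark GGCGCC.
Hes5: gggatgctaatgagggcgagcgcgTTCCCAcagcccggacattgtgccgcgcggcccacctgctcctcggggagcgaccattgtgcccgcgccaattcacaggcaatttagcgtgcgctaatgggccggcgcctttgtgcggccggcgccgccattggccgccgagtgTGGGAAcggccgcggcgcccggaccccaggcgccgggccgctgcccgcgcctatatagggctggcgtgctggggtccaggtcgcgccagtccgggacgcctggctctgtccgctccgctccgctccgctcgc
Id3: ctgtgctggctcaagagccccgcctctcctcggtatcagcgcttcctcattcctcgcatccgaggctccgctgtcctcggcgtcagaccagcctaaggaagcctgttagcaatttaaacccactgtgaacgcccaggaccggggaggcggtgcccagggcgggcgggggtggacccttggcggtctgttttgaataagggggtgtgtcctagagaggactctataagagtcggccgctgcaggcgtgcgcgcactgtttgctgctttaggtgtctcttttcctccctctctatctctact
Id4: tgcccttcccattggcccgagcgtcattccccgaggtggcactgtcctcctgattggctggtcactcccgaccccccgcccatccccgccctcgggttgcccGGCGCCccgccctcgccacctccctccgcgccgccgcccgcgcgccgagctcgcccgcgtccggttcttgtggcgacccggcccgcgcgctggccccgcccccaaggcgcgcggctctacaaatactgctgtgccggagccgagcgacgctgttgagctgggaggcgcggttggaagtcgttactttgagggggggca
In the Hes5 window TGGGAA began at −226 and −82 from the start, and GGCGCC occurred 4 times, with no N box. The Id3 window held 0 matches to any of the 3 motifs, and the Id4 window held 1 match to each. The Id2 window held 1 N box and 1 GGCGCC. The pair of Hes6 windows differed, with 0 matches in one and 2 N boxes in the other. A match is a run of letters and says nothing about binding, and a window without one says only that these letters are not in it.

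In the mm10 annotation Hes5 lies at chr4:154960923-154962371, and Hes3 (chr4:152285972-152291662) and Id3 (chr4:136143822-136145392) lie on the same chromosome. Hes1 is at chr16:30065357-30067796, Hes6 at chr1:91411483-91414038 and Hey1 at chr3:8663359-8667038. Id1 is at chr2:152736251-152737410, Id2 at chr12:25093799-25096092 and Id4 at chr13:48261116-48266028. Id4 exons overlap those of A330033J07Rik on the opposite strand, and whether the counting used strand is not stated, so reads of these genes may not be separable. For the other 8 members no exon of another gene overlaps.

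The libraries held 7615114 to 13484815 reads in genes and detected 9718 to 15963 genes. Values are normalised reads, that is, read counts divided by a size factor for each library. The sorted identities were checked on marker lists. The 4 NMP markers summed to between 2872 and 6074 normalised reads on day 3 and had a median of 0 in every cell type on days 5 and 6. Foxa2, a floor plate factor, had medians of 925, 738 and 906.5 normalised reads in p3 on days 4, 5 and 6, against at most 206 in any other cell type on any day. Shh, the ligand of the floor plate, had medians of 0, 178 and 344 in p3 on these days. The summed neuronal list of 9 genes had medians of 1319 to 1628 on day 4, 957 to 2259 on day 5 and 4142 to 5072 on day 6 across the cell types. One library stands apart. The single p3 library at 100 nM on day 4 had the most reads of all and the fewest genes detected, 9718 against 12319 to 13004 in the other 3 day 4 p3 libraries, and calls that were lost or values that moved by over 1.5 times without it are given both ways. In bulk samples, fewer expressing cells and less RNA in each of them cannot be told apart.

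Members differed widely in level. Per kilobase of exon, Hes5 was the most abundant in pMN on days 5 and 6 at 7205 normalised reads per kb, followed by Id3 at 1474 and Hes6 at 993 normalised reads per kb. Id1, Hes1 and Id2 followed at 588, 536 and 463, and Hey1 and Id4 at 146 and 96.6 normalised reads per kb. Hes3 was listed at 0 in 43 of the 65 libraries. In p3 the order changed at the top, with Id3 at 3528, Hes5 at 3259 and Hes1 at 1068 normalised reads per kb.

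**Figure D1:**
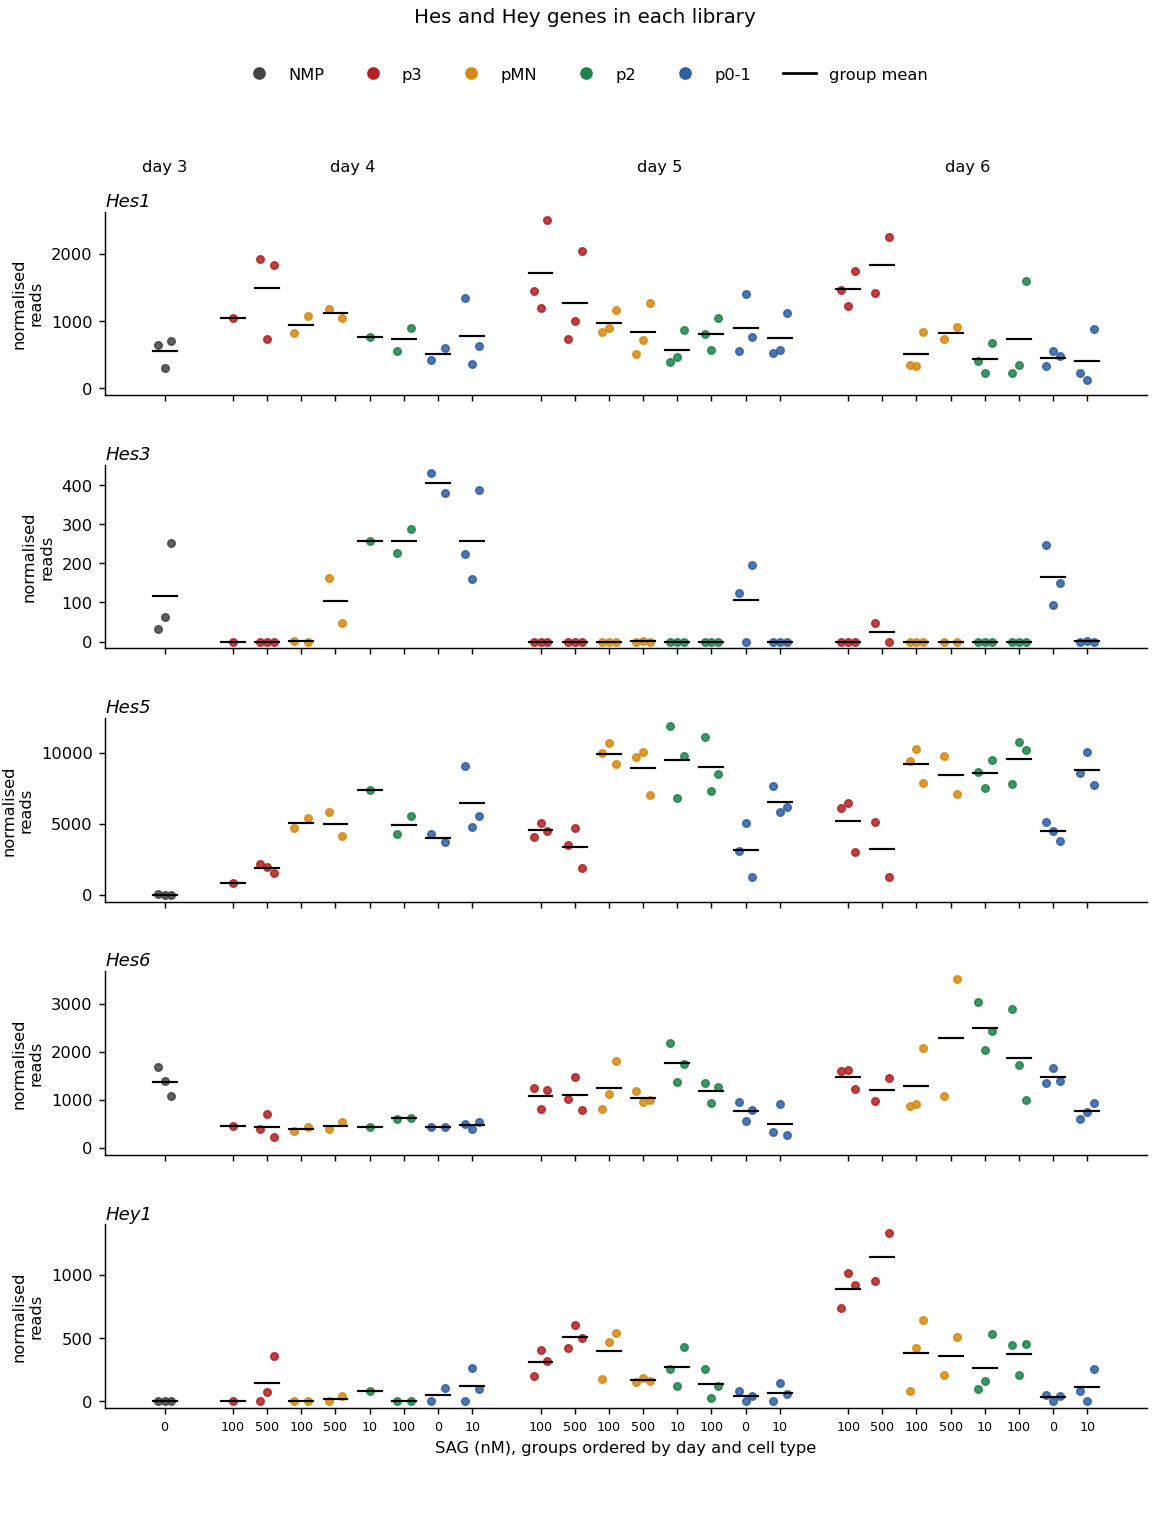
Normalised reads of Hes1, Hes3, Hes5, Hes6 and Hey1 (vertical axes, linear) in each library, with groups ordered along the horizontal axis by day and cell type and labelled by SAG in nM. Each point is 1 library, its colour the cell type, and each bar a group mean. Hes5 lies at 6.79 to 25.6 in the NMP libraries and at 839 or more from day 4, and Hes3 is absent from nearly all p3, pMN and p2 libraries of days 5 and 6.

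To ask how the repressors changed with time, the 8 groups of each day were averaged and compared. A member was called where limma's adjusted p was below 0.01 and the change exceeded 2-fold on the log2(value + 1) scale. Between NMPs and day 4, 2 of 9 members were called, Hes5 higher and Hes6 lower, where 3.49% of all genes tested were called. From day 4 to day 5, 4 of 9 were called, against 4.30% of all genes: Hes6 and Hey1 rose, and Hes3 and Id2 fell. From day 5 to day 6 only Id4 was called, against 0.852% of all genes, and it rose.

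Hes5, the main Notch effector of neural progenitors, had 25.6, 14.6 and 6.79 normalised reads in the NMP libraries. On day 4 it ran from 839 to 9084 with a median of 4496.5. Every day 4 library lay above every NMP library. Hes5 rose by 7.96 on the log2 scale (SE 0.30, limma adjusted p = 1.31e-26), the largest of any member in the 3 comparisons of days. The median log2 change of all genes in this comparison was −0.40. From day 4 to day 5 its log2 change was 0.71 (SE 0.16, adjusted p = 0.00136), which is under 2-fold and not called. Without the p3 library at 100 nM on day 4 that change was 0.40 (adjusted p = 0.126).

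Hes6, which marks cells on the way to differentiation, followed the reverse course at first. The NMP libraries had 1680, 1385 and 1078 normalised reads, and the day 4 libraries 219.5 to 706, with no overlap. It fell by 1.58 on the log2 scale (SE 0.33, adjusted p = 0.000746). The call was lost without NMP replicate 1 (adjusted p = 0.0225) or replicate 2 (adjusted p = 0.0118). On day 5 Hes6 rose to a mean of 1086 ± 438.5 normalised reads (SD, n = 24) from 466 ± 118 (n = 16), a log2 change of 1.12 (SE 0.17, adjusted p = 5.01e-06), and 22 of 24 day 5 libraries lay above the day 4 median. The mean on day 6 was 1598 ± 785 (n = 22), and the further log2 change of 0.54 was not called (adjusted p = 0.029). The summed neuronal list had a median of 2549 in NMPs and was likewise lower on day 4 and highest on day 6 (medians above), and its part in the Hes6 changes was not tested. Genes of that list did not all follow the course of the sum. Mean Stmn2 was 597 in NMPs and 92.4 to 176 across the cell types on day 6, while mean Elavl3 was 101 and 392 to 851.

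Hey1, a Notch target that pairs with Hes proteins, had 0, 0 and 2.72 normalised reads in the NMP libraries and a median of 0.913 on day 4, when 7 of 16 libraries were at 0. On day 5 the median was 181 and 2 of 24 libraries were at 0. The log2 change was 4.09 (SE 0.81, adjusted p = 0.000264), with 22 of 24 day 5 libraries above the day 4 median. The libraries still overlapped, since day 4 reached 362 in p3 at 500 nM. Without the day 4 p3 library at 100 nM the change was 3.68 (adjusted p = 0.00184).

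Hes3, a Hes gene of early neural progenitors that acts alongside Hes1 and Hes5, went the other way. The NMP libraries had 33.1, 64.1 and 253 normalised reads, and 11 of 16 libraries had reads on day 4, with a median of 162. On day 5, 21 of 24 libraries were at 0. The log2 change from day 4 to day 5 was −4.32 (SE 0.49, adjusted p = 5e-09) by limma, and it was not called by edgeR on the recovered reads (adjusted p = 1). Without the day 4 p3 library at 100 nM it was −5.04 (limma adjusted p = 1.22e-10).

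Among the Id genes, Id2 and Id4 changed with time. Id2 had 175, 259 and 110 normalised reads in the NMP libraries, a mean of 902 ± 298 on day 4 (n = 16) and of 435 ± 228 on day 5 (n = 24). It fell by 1.29 on the log2 scale between days 4 and 5 (SE 0.35, adjusted p = 0.00832). That call is fragile, since it was lost in 24 of 76 alternatives, 20 of them the removal of 1 library (highest adjusted p 0.0301). The difference of day 4 from NMPs was 2.22 on the log2 scale and not called by limma (adjusted p = 0.0267), while 6 of 11 alternatives called it (DESeq2 adjusted p = 0.000502). Every day 4 library exceeded every NMP library.

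Id4 rose late. Its normalised reads ran from 19.0 to 121 in NMPs, from 3.48 to 507 on day 4, from 0 to 1045 on day 5 and from 217 to 2693 on day 6. The day 6 mean was 1214 ± 683 (n = 22) against 325 ± 282 (n = 24) on day 5, a log2 change of 2.61 (SE 0.54, adjusted p = 0.00156). The median of the summed neuronal list was higher on day 6 than on day 5 in every cell type (medians above), and its part in the Id4 change was not tested.

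Hes1, Id1 and Id3 were not called in any comparison of days over all cell types. Hes1, the broadest Notch target of the family, averaged 551 ± 215 normalised reads in NMPs (n = 3), then 951.5, 975 and 788 on days 4, 5 and 6. The interval of its log2 change from day 4 to day 5 was −0.45 to 0.53. For Id1 that interval was −0.64 to 1.87, and for Id3 −0.28 to 0.45, all at 95%.

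**Figure D2:**
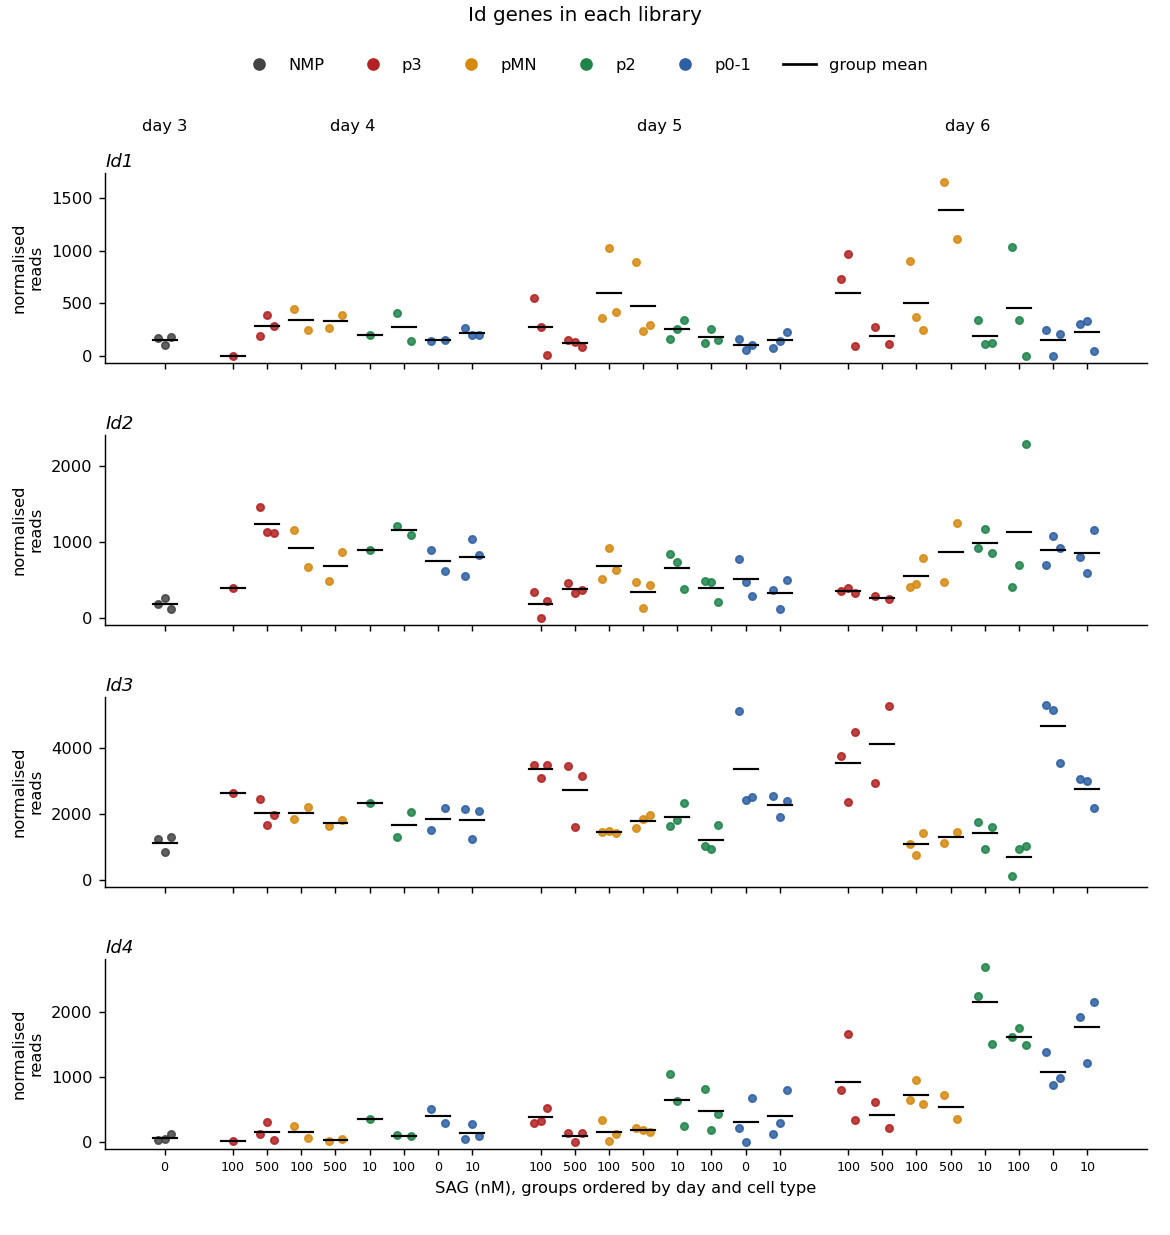
Normalised reads of Id1, Id2, Id3 and Id4 (vertical axes, linear) in each library, with groups ordered along the horizontal axis by day and cell type and labelled by SAG in nM. Each point is 1 library, its colour the cell type, and each bar a group mean. On days 5 and 6 the Id3 group means are higher in p3 and p0-1 than in pMN and p2, and Id4 is highest on day 6 in p2 and p0-1.

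The same steps were tested within each cell type. From day 4 to day 5, 1 of 9 members was called in p3 (Hes5, higher, against 6.41% of all genes), in p2 (Hes3, lower, against 0.193%) and in p0-1 (Hes3, lower, against 0.337%). In pMN none was called, against 0.695% of all genes; there 4 members had an unadjusted p under 0.05, edgeR called 0 and DESeq2 called 2. From day 5 to day 6 limma called no member in p3, pMN, p2 or p0-1, where 0.0215%, 0.0286%, 0.150% and 0.0645% of all genes were called. In that step 1, 1, 1 and 5 members had an unadjusted p under 0.05, and neither edgeR nor DESeq2 called any.

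In p3, Hes5 had 839 normalised reads at 100 nM and 2168, 1972 and 1510.4 at 500 nM on day 4. On day 5 it ran from 1897 to 5070 with a median of 4269.7. The log2 change was 1.59 (SE 0.33, adjusted p = 0.000453). Without the 100 nM library of day 4 it was 1.02 (adjusted p = 0.171), and all genes called then fell from 6.41% to 0.294%.

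The loss of Hes3 came at different times in different cell types. In p3 it was already at 0 reads in 4 of 4 libraries on day 4. In pMN on day 4 the 100 nM libraries had 2.40 and 0 normalised reads and the 500 nM libraries 162.5 and 47.1. In p2 the day 4 libraries had 259 at 10 nM and 226 and 288 at 100 nM. All 6 day 5 libraries of p2 were at 0, at least 88.0-fold lower (adjusted p = 3.35e-06 by limma, 0.0199 by edgeR and 0.00259 by DESeq2). In p0-1 all 5 day 4 libraries had reads, from 161 to 431, and on day 5 a log2 change of −5.86 was called (SE 0.88, limma adjusted p = 3.33e-05; edgeR 0.124, DESeq2 0.0646). That change was −4.65 without day 5 p0-1 replicate 2 at 0 nM. The day 5 libraries of p0-1 were at 0, 0 and 0 with 10 nM SAG and at 124, 0 and 196 without it, so the fall was not shared by all libraries, and the mean over both went from 317 to 53.4.

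A test of whether the steps between days differed between cell types gave Hes3 alone among the members (moderated F = 7.82, adjusted p = 0.000451), where 2.60% of all genes were called. Id3 had the next lowest adjusted p, 0.0251. Without the day 4 p3 library at 100 nM, no member was called. The steps were compared with those of p3, where Hes3 was at 0 in 4 of 4 libraries on day 4 and 6 of 6 on day 5. It could therefore not fall in p3.

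To ask how the progenitor types differed once established, each cell type was averaged over its 4 groups of days 5 and 6. Between p3 and pMN 2 of 9 were called (0.695% of all genes), between p3 and p2 3 (1.27%), and between p3 and p0-1 2 (1.43%). Between pMN and p0-1 2 were called (0.960%) and between p2 and p0-1 3 (0.322%). Between pMN and p2 none was called (0.107% of all genes); 2 members had an unadjusted p under 0.05, and edgeR and DESeq2 called 0.

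**Figure D3:**
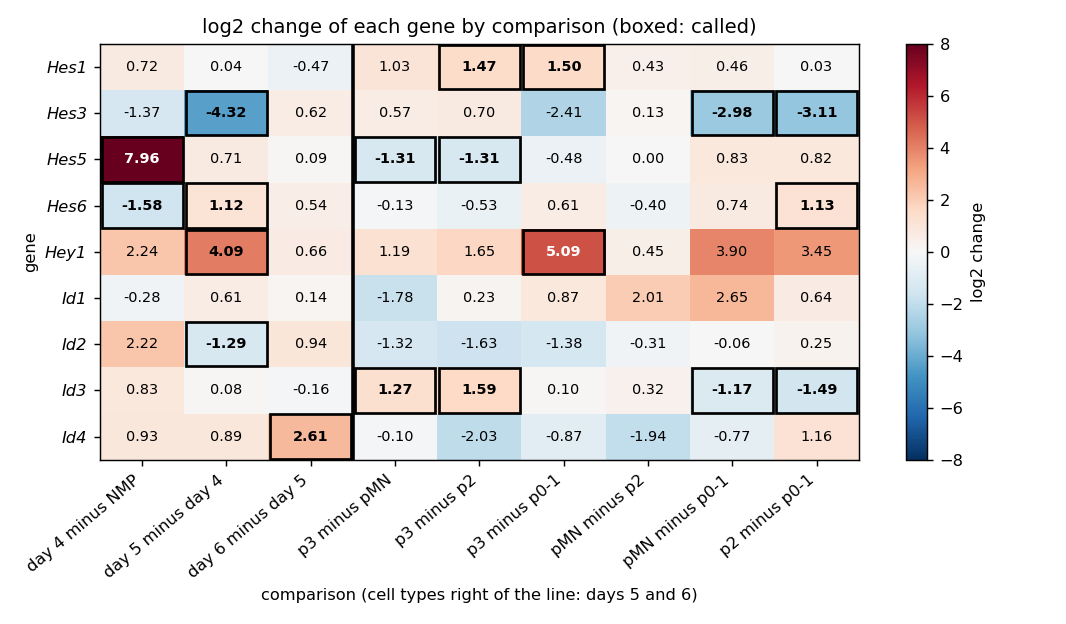
The log2 change of each member (rows) in the 3 comparisons of days and the 6 comparisons of cell types over days 5 and 6 (columns), from the limma model, with red for higher and blue for lower in the first-named group. Boxes mark called changes: Hes5 reaches 7.96 between NMPs and day 4, and the Id3 values are positive for p3 against pMN and p2 and negative for pMN and p2 against p0-1.

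Hes5 was lower in p3 than in pMN or p2. Its normalised reads ran from 1246 to 6450 (median 4494) in the 11 p3 libraries, from 6987 to 10681 (median 9699) in the 11 pMN libraries and from 6786 to 11844 (median 9078) in the 12 p2 libraries. No p3 library reached the lowest pMN or p2 library. The log2 difference was −1.31 from pMN (SE 0.20, adjusted p = 3.22e-05) and −1.31 from p2 (SE 0.20, adjusted p = 1.18e-05). In p0-1 the Hes5 mean over both SAG concentrations lay between, at 5723 ± 2487 (SD, n = 12), and was not called apart from any other type. At 0 nM the p0-1 means on days 5 and 6 were 3117 and 4461, and at 10 nM they were 6538 and 8776. At 10 nM p2 had means of 9461 and 8566.5 on these days. The log2 differences were −0.48 for p3 minus p0-1 (adjusted p = 0.193), 0.83 for pMN minus p0-1 (adjusted p = 0.0108) and 0.82 for p2 minus p0-1 (adjusted p = 0.0193). pMN and p2 had nearly equal Hes5, with means of 9172 and 9141.

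On day 4 Hes5 was likewise lowest in p3, while p0-1, with a mean of 5489, lay between pMN at 5015.5 and p2 at 5729. That p0-1 mean joins 4007 at 0 nM and 6477 at 10 nM. The p3 libraries are given above, while pMN had 4685.5 and 5388 at 100 nM and 5843.5 and 4146 at 500 nM, p2 had 7372, 4283 and 5531, and p0-1 ran from 3707 to 9084. No p3 library overlapped another cell type. Members called on day 4 were Hes5 for p3 against pMN (4.70% of all genes), and Hes3 and Hes5 for p3 against p2 (4.30%) and against p0-1 (6.02%). The log2 differences of Hes5 were −1.99, −2.26 and −2.0. Without the p3 library at 100 nM they were −1.42, −1.68 and −1.42 and no longer called (adjusted p = 0.133, 0.0799 and 0.0614), and the share of all genes called fell to 0.0430%, 0.0358% and 0.100%. Among pMN, p2 and p0-1 on day 4 limma called no member (0.00716%, 0.100% and 0.0286% of all genes for pMN against p2, pMN against p0-1 and p2 against p0-1). In these, 1, 1 and 0 members had an unadjusted p under 0.05, edgeR called 0, and DESeq2 called 0, 1 and 0.

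Hes1 had its highest level in p3, where Hes5 had its lowest. The p3 libraries of days 5 and 6 ran from 738 to 2510 normalised reads with a median of 1444.5, while the medians were 838 in pMN, 518 in p2 and 554.5 in p0-1. The log2 difference of p3 was 1.47 from p2 (SE 0.30, adjusted p = 0.00204) and 1.50 from p0-1 (SE 0.30, adjusted p = 0.00113). All 11 p3 libraries lay above the median of p2 and of p0-1, but the ranges overlapped. From pMN the difference was 1.03 and not called (adjusted p = 0.0902). The p3 against p2 call was lost without p3 replicate 3 at 500 nM on day 6 (adjusted p = 0.0123). pMN, p2 and p0-1 were not called apart from each other in Hes1 by limma.

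Hey1 had its highest mean in p3 and its lowest in p0-1, with means of 673 ± 349 normalised reads in p3 (n = 11), 323 ± 196 in pMN (n = 11), 259 ± 168 in p2 (n = 12) and 61.9 ± 73.2 in p0-1 (n = 12). Only the ends of that order were called apart, with p3 above p0-1 by 5.09 on the log2 scale (SE 1.01, adjusted p = 0.00082, edgeR 0.0194), or by 4.5 without day 6 p0-1 replicate 2 at 10 nM. In p0-1, 4 of 12 libraries were at 0. On day 6 the p3 libraries ran from 736 to 1333 and the other cell types no higher than 641. The floor plate genes Foxa2 and Shh are high in p3 on the same days (medians above), and their part in the p3 values of Hes1, Hes5 and Hey1 was not tested.

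Hes6 separated p2 from p0-1. The p2 libraries of days 5 and 6 ran from 929.5 to 3045 normalised reads (median 1733) and the p0-1 libraries from 273 to 1665 (median 855.5), with all 12 p2 libraries above the p0-1 median. The log2 difference was 1.13 (SE 0.21, adjusted p = 0.00122). pMN and p3 lay between, at means of 1393 and 1219.6, and were not called apart from each other, from p2 or from p0-1.

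On days 5 and 6 Hes3 was found mainly in p0-1 cells grown without SAG. Of the 34 p3, pMN and p2 libraries of days 5 and 6, 32 were at 0 and 33 had at most 3 reads. The exception was p3 replicate 1 at 500 nM on day 6, with 65 reads. In p0-1, 6 of 12 libraries had normalised reads above 0, with a mean of 67.8. pMN and p2 were at least 23.8-fold and 21.8-fold lower than p0-1, computed against 3 reads per library (adjusted p = 0.00173 for both by limma; edgeR and DESeq2 called neither). Without day 5 p0-1 replicate 2 at 0 nM the log2 differences moved from −2.98 to −3.59 for pMN and from −3.11 to −3.72 for p2. The difference of p3 from p0-1 was −2.41 and not called (adjusted p = 0.0124). On day 4, p3 was at least 90.7-fold below p2 and at least 112-fold below p0-1 (adjusted p = 3.39e-06 and 5.45e-08; edgeR 0.0343 and 0.0253), and without the p3 library at 100 nM limma's adjusted p was 0.000156 and 1.35e-06.

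Id3, the most abundant Id gene here, had its highest means at both ends of the ventral to dorsal order and its lowest between them. On days 5 and 6 it averaged 3362 ± 978 normalised reads in p3 (n = 11) and 3251 ± 1241 in p0-1 (n = 12), against 1404 ± 334 in pMN (n = 11) and 1302 ± 585 in p2 (n = 12). p3 exceeded pMN by 1.27 on the log2 scale (SE 0.23, adjusted p = 0.000562) and p2 by 1.59 (SE 0.23, adjusted p = 3.11e-06). p0-1 exceeded pMN by a similar amount, with −1.17 for pMN minus p0-1 (SE 0.23, adjusted p = 0.000727), and p2 minus p0-1 was −1.49 (SE 0.22, adjusted p = 1.49e-05). The p0-1 average joins libraries at 0 and 10 nM SAG. Its Id3 means on days 5 and 6 were 3339 and 4657 at 0 nM, and 2268 and 2741 at 10 nM. At 10 nM p2 had means of 1909 and 1415, and Id3 was not called between p2 and p0-1 at that concentration. The outer pair was not called apart, with a log2 difference of 0.10 (adjusted p = 0.887), nor was the inner pair, with 0.32 (adjusted p = 0.669). On day 4 the 4 cell types had means of 2165 in p3, 1867 in pMN, 1889 in p2 and 1819.9 in p0-1, and none of the day 4 differences of Id3 was called.

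The other Id genes were called by limma in none of the 6 comparisons. Id1 had the highest mean in pMN, 682 ± 466 normalised reads (n = 11), against 157 ± 107 in p0-1 (n = 12), a log2 difference of 2.65 (limma adjusted p = 0.0596), which DESeq2 called (adjusted p = 0.00154). Id2 had the lowest mean in p3, 300.1 ± 120 (n = 11), against 791 ± 549 in p2 (n = 12), a log2 difference of −1.63 (limma adjusted p = 0.0185), which 3 of 11 alternatives called, DESeq2 among them (adjusted p = 0.000823). On day 6 all 5 p3 libraries lay between 248 and 392 and all other libraries at 411 or more. Id4 had its highest means in p2 and p0-1, 1221 ± 800 and 886 ± 694 (n = 12 each), and p3 minus p2 was −2.03 (adjusted p = 0.124).

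Because cell types differ in SAG, they were also compared at a shared concentration over days 5 and 6. At 100 nM, Id3 was called for p3 against pMN (0.465% of all genes) and for p3 against p2 (0.752%). Its normalised reads ran from 2339.9 to 4479.9 in 6 p3 libraries, from 752 to 1461 in pMN and from 109 to 1647 in p2, with no overlap, and the log2 differences were 1.46 (SE 0.31, adjusted p = 0.00598) and 2.19 (SE 0.31, adjusted p = 1.38e-05). At 500 nM, Hes5 was called for p3 against pMN (0.122% of all genes), at −1.60 (SE 0.30, adjusted p = 0.00365), with p3 from 1246 to 5151 and pMN from 6987 to 10061. The first of these Id3 calls and the Hes5 call were lost when any of 9 and of 6 single libraries was removed. For p3 against pMN neither gene was called at both concentrations. At 100 nM mean Hes5 on days 5 and 6 was 4536 and 5178 in p3, and 9933 and 9182 in pMN. At 500 nM mean Id3 on these days was 2722 and 4101 in p3, and 1778 and 1282 in pMN. Hes5 was also not called for p3 against p2 at 100 nM. At 10 nM, Hes6 was called for p2 against p0-1 (0.0215% of all genes), at 1.84 (SE 0.30, adjusted p = 0.000607), with p2 from 1363 to 3045 and p0-1 from 273 to 925.5. Id3 was not called in that comparison (means above). For pMN against p2 at 100 nM limma called no member (0.0143% of all genes); 2 had an unadjusted p under 0.05, and edgeR and DESeq2 called 0.

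Within each sorted cell type, the higher SAG concentration was compared with the lower over days 5 and 6. Since p0 and p1 share the p0-1 gate, a change in their shares and a change within either cannot be told apart there. In p0-1, 1 of 9 members was called between 10 and 0 nM, where 0.0143% of all genes were, and it was Hes3. Without SAG its normalised reads were 124, 0 and 196 on day 5 and 247, 94.7 and 151 on day 6. With 10 nM they were 0, 0 and 0 on day 5 and 0, 0.943 and 0 on day 6, which is at most 1 read. The 10 nM libraries were at least 44.9-fold lower by the floor of 3 reads (log2 change −5.90, SE 0.83, adjusted p = 4.15e-05), and 5 of 6 libraries without SAG lay above all of those with it. edgeR did not call it, and without day 5 replicate 2 at 0 nM the log2 change was −7.12. On day 4 both concentrations still had reads, 431 and 382 at 0 nM and 224, 161 and 388 at 10 nM.

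**Figure D4:**
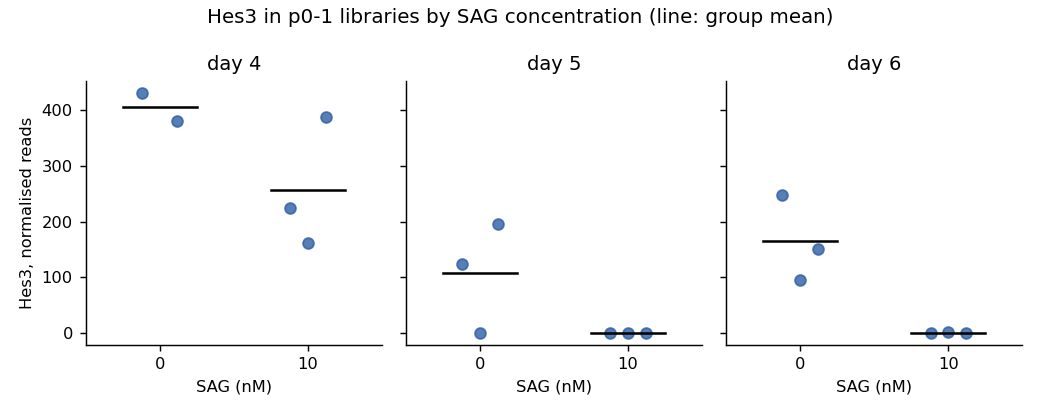
Hes3 in p0-1 libraries on days 4, 5 and 6 (panels), with SAG in nM on the horizontal axis and normalised reads on the linear vertical axis. Each point is 1 library and each bar a group mean. On day 4 the libraries with 10 nM SAG lie at 161 to 388, and on days 5 and 6 they lie at 0 to 0.943 while 5 of the 6 libraries without SAG lie at 94.7 to 247.

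No other member was called by limma with SAG in p0-1. Hes5 was 1.13 higher at 10 nM on the log2 scale (95% interval 0.59 to 1.68, limma adjusted p = 0.157; DESeq2 called it, adjusted p = 0.0017), and all 6 libraries at 10 nM exceeded the median of those without SAG. Hes6 was lower by −0.87 (interval −1.47 to −0.27, adjusted p = 0.723). In p2, pMN and p3 limma called no member between the SAG concentrations, where 0.0358%, 0% and 0.0286% of all genes were called. In these, 1, 0 and 2 members had an unadjusted p under 0.05, and edgeR and DESeq2 called 0. For pMN, 657 of all genes tested had an unadjusted p under 0.05.

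The genes around the repressors were counted from fixed lists. Of 5 Notch ligands, 1 fell between NMPs and day 4, 3 rose from day 4 to day 5 and 1 rose from day 5 to day 6, with list medians of 0.29, 1.60 and 0.77 on the log2 scale against −0.40, 0.01 and 0.00 for all genes. Dll3, an internal ligand that dampens Notch, fell by 4.29 (adjusted p = 3.95e-08), then rose by 2.86 (adjusted p = 1.52e-10) and 1.32 (adjusted p = 0.000564). Without the day 4 p3 library at 100 nM its first 2 changes were −3.27 and 1.85 (adjusted p = 1.7e-05 and 8.28e-06). Dll4 rose by 5.52 from day 4 to day 5 (adjusted p = 2.04e-06; edgeR 1). Dll1, the main ligand of newborn neurons, rose by 1.60 in that step (adjusted p = 2.42e-07), but only by 0.37 without the day 4 p3 library at 100 nM (adjusted p = 0.34). Of 15 receptors and transducers only Nrarp, a feedback target of Notch, rose in that step, by 3.08 (adjusted p = 0.00625), and that call was lost in 9 of the fits without 1 library, that one among them (adjusted p = 0.0344).

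Between cell types the Notch genes differed in both directions. Notch2 was higher in p3 than in pMN, p2 and p0-1, by 1.48, 1.49 and 1.23 on the log2 scale (adjusted p = 2.55e-05, 6.36e-06 and 0.00018). Notch1 was higher in pMN than in p0-1 by 1.68 (adjusted p = 5.41e-06). Jag1 was higher in p3 than in pMN by 1.76 (adjusted p = 0.00131) and lower in pMN than in p0-1 by −2.27 (adjusted p = 5.8e-06), while Dll1 was lower in p3 than in pMN and p2 by −1.54 and −1.58 (adjusted p = 0.000377 and 9.78e-05). The Jag1 call between p3 and pMN was lost without p3 replicate 3 (adjusted p = 0.0145) or pMN replicate 1 (adjusted p = 0.0242), both at 500 nM on day 6. Among proneural genes, p3 was below pMN in Neurog2 and Neurod1, by −4.30 and −3.47 (adjusted p = 3.22e-05 and 0.00362; edgeR 0.00238 and 0.0259). The Neurod1 call was lost without replicate 3 of p3 (adjusted p = 0.0188) or of pMN (adjusted p = 0.0185) at 500 nM on day 6, and Neurog2 was at −4.96 without day 5 p3 replicate 3 at 100 nM. Neurog1 rose from day 4 to day 5, by 4.08 (adjusted p = 8.97e-09), and Neurog2 rose from NMPs to day 4, by 4.66 (limma adjusted p = 0.000932; edgeR 1, DESeq2 0.303), or by 5.36 without the day 4 p3 library at 100 nM, and 2 of the fits without 1 library lost that call. These low-level genes were named after their values were seen.

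Fewer genes of the remaining lists were called. Of 7 other Hes and Hey genes, Hes7, the clock gene of the presomitic mesoderm and tail bud, fell by 5.99 between NMPs and day 4 (adjusted p = 3.28e-05; edgeR and DESeq2 did not call it). Hes2 averaged 184 ± 160 normalised reads in p2 at 10 nM and was at 0 in 6 of 6 p2 libraries at 100 nM (adjusted p = 0.000217; edgeR and DESeq2 did not call it). Of 5 Groucho genes tested, Tle6, named after its values were seen, fell by 3.23 from day 4 to day 5 (adjusted p = 0.00215), and Tle1 was lower in p3 than in p2 by −1.36 (adjusted p = 0.00166, or 0.0123 without p3 replicate 3 at 500 nM on day 6). None of the 3 E protein genes and none of the 13 BMP ligand, receptor and SMAD genes tested was called by limma in any of the 32 comparisons. Over the 9 comparisons of days and of cell types, 6 of 27 pairs of an E protein gene and a comparison had an unadjusted p under 0.05, and edgeR and DESeq2 called 0. For the BMP genes 16 of 117 pairs did, edgeR called 0 and DESeq2 called 16 pairs. Of 7 BMP antagonists and other targets, Fst, an antagonist of activin and BMP, fell by 5.97 between NMPs and day 4 (limma adjusted p = 2.5e-06). DESeq2 did not call that change (adjusted p = 0.13). The log2 change of Fst from day 4 to day 5 was −7.98 (adjusted p = 8.48e-18).

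The genes with the most similar profile to each member were found by Pearson's r over the 25 group means, as a description. For Hes5 these were Lama1 (0.95), Spsb4 (0.94) and Meis1 (0.92), and for Hes1 Foxa2 (0.86), Col18a1 (0.85) and Pltp (0.80). For Hes3 they were Gpr153 (0.76), Cd44 (0.75) and Kcnj12 (0.71), although Hes3 itself is below the mean of 100 required of the other genes. For Hes6 Nckap5 led at 0.86, for Hey1 Tagln3 at 0.85, for Id1 Ier5l at 0.91, for Id2 Ssb at 0.76, for Id3 Skap2 at 0.77 and for Id4 Srsf6 at 0.81. The group means share libraries, size factors and day, so the values carry no p.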

How the data were processed

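RNA was measured in 65 libraries of fixed, sorted cells. The libraries were made by the authors with full-length cDNA amplification and ERCC spike-ins; reads were aligned with STAR in an nf-core pipeline to mm10 and counted with featureCounts over refGene, without duplicates. Strand use is not given in the sources used here, and the authors removed libraries that failed their quality criteria. The deposited values are an expression signal, namely read counts divided by 1 size factor per library. Per the file headers and values, 100.0% of the 834400 values above 0 were whole multiples of the value of 1 read within 0.01, so read counts were recovered (7615114 to 13484815 per library, 0.717 to 1.36 normalised reads each). The cDNA was amplified without molecular identifiers, so limits from counts cover counting error only. The deposited annotation gave the gene positions (other values).

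Libraries were grouped by the labels' day, SAG concentration and cell type. Differences were tested with limma 3.58.1 in R 4.3.3 on log2(value + 1) for 13964 genes whose mean reached 10. On it, changes of genes near 0 come out too small. The model had 25 group means over all 65 libraries and a variance trend (40 residual and 7.4 prior degrees of freedom). The study states no expression test; the thresholds (adjusted p below 0.01, more than 2-fold) are the fold and false discovery rate it applied to accessibility, without its further minimum on the mean. P-values were adjusted by Benjamini-Hochberg over all genes tested, and every adjusted p is limma's unless another tool is named. edgeR 4.0.16 (quasi-likelihood) and DESeq2 1.42.0 on recovered read counts were alternatives. The procedure was first tested on simulated data. Against a group with no library above 3 reads, folds are lower bounds, taken at 3 reads per library.

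The members and lists were chosen with earlier results of these data known. All members are named; list genes are named at most 3 per direction and comparison, by size of change, if called and averaging 100 or more in one group. Means ± SD are over libraries. Some genes of the marker and pathway lists are not reported here.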

Additional observations from a re-analysis of the deposited data

Results flagged for a closer look

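The step from day to day differed between cell types for Hes3 (moderated F test of the differences, adjusted p = 0.000451).

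In 93 sets of 1 member, day and cell type, SAG concentrations were pooled. By Dixon's test on log2(value + 1), 14 of these sets held a library far from the rest. In 11 of the 14 the library was the lowest and in 3 the highest. For normal values of a single population the test flags about 1 in 20. That share does not carry over to sets that pool SAG concentrations or hold zeros. A tested set with all libraries but 1 at 0 is always flagged, as were the Hes3 and Hey1 sets below. Hes3 was at 46.6 normalised reads in p3 replicate 1 at 500 nM on day 6, with the other 4 libraries at 0. Hes5 was at 1897 in p3 replicate 3 at 500 nM on day 5 (others 3522 to 5069.9) and at 6987 in pMN replicate 3 at 500 nM on day 5 (others 9175 to 10681). Hey1 was at 40.7 in pMN replicate 3 at 500 nM on day 4, with the others at 0.

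Id1 was at 0 in 3 libraries: p3 replicate 3 at 100 nM on day 4 (others 188.5 to 386), p0-1 replicate 2 at 0 nM on day 6 (others 42.1 to 336) and p2 replicate 3 at 100 nM on day 6 (others 110.3 to 1032). Id2 was at 1.76 in p3 replicate 2 at 100 nM on day 5 (others 216 to 464). Id3 was at 5115 in p0-1 replicate 1 at 0 nM on day 5 (others 1888 to 2533), at 1585 in p3 replicate 2 at 500 nM on day 5 (others 3082 to 3487.5) and at 109 in p2 replicate 1 at 100 nM on day 6 (others 917.5 to 1740.0). Id4 was at 0 on day 5 in p0-1 replicate 2 at 0 nM (others 120 to 799) and in p3 replicate 2 at 500 nM (others 127 to 524), and at 3.22 in pMN replicate 2 at 100 nM (others 110.5 to 332).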

How the results depend on the processing

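Counts are calls among the 9 members. The counts for NMPs to day 4 and for day 4 to day 5 stayed within 1.5 times under the 12 alternatives that keep every library. At an adjusted p below 0.05 with no fold minimum the counts became 2 (from 1) for day 5 to day 6, 9 (from 3) for day changes within cell types, 8 (from 5) for cell types on day 4 and 2 (from 1) for the day by cell type interaction. With only the compared libraries in the fit they were 1 for day changes within cell types, 7 (from 12) for cell types over days 5 and 6, 0 (from 4) for cell types at the same SAG and 0 (from 1) for SAG within cell types. edgeR gave 1, 3, 0 and 0 for day changes within cell types, cell types on day 4, SAG and the interaction, and DESeq2 gave 8, 9, 2 and 2. A mean of at least 100 gave 3 for cell types on day 4 and left Hes3 untested, so that SAG and the interaction had 0. A pseudocount of 10 gave 5 day changes within cell types, genes detected as a covariate gave 2 at the same SAG, and for the interaction quantile normalisation gave 0 and array weights 2. The cause was not tested.

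Leaving out 1 library at a time gave ranges of 1 to 3 for NMPs to day 4, 3 to 4 for day 4 to day 5, 1 to 1 for day 5 to day 6, 2 to 6 within cell types, 11 to 14 for cell types over days 5 and 6, 2 to 7 on day 4, 3 to 5 at the same SAG, 1 to 1 for SAG and 0 to 2 for the interaction. Of 83 changes of single genes, 4 reversed, all without the p3 library at 100 nM on day 4. Over the libraries left out, Jag2 ran from −4.19 to 0.44 in p3 against p0-1 and from −3.94 to 0.71 in p3 against pMN on day 4, and from −1.29 to 3.59 in p3 from day 4 to day 5, and Dll3 ran from −3.67 to 0.73 in p3 against p0-1 (log2), with the value of the other sign in each case the one without that library. The other refits without 1 library lost 150 calls and left 5241 as they were, and the alternatives that keep every library lost 101, of which 38 with only the compared libraries and 23 with edgeR, and left 800.

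A replicate block moved the calls within cell types from 3 to 5, adding Hey1 from day 4 to day 5 in p3 (adjusted p = 0.00211) and pMN (adjusted p = 0.00368), and no other member count by over 1.5 times. Libraries of the same number deviated from their group means with a mean r of 0.02 (−0.10 to 0.12, 634 pairs, 5 over 0.1), against −0.01 for other numbers, so the numbers were not taken as pairs. As a hint from the data, 53 of 63 libraries correlated best with their own number, more than an even spread over the 3 numbers would give. The main fit treats the libraries as independent, so its p-values take no account of an effect shared by libraries of the same number. The study sorted cell types from the same dish, and whether a number marks one dish is not given in the sources used here.

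Over all genes, DESeq2 called 587 to 986 genes in the 6 comparisons of cell types over days 5 and 6, against 15 to 199 with limma. Day 4 against NMPs ranged from 292 (mean of at least 100) to 1656 (array weights), day 5 against day 4 from 438 (quantile normalisation) to 2321 (DESeq2) and day 6 against day 5 from 78 (mean of at least 100) to 899 (DESeq2). Hes3 was listed at 0 in 43 of 65 libraries, and folds against groups at 0 are limited by the floor of 3 reads per library.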

Other observations

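The replicate numbers, which the labels do not tie to a shared culture, were not evenly spread over the members' values. Among the 23 groups with a replicate 3 and at least 1 other library, replicate 3 had the highest Hes1 in 18 and the lowest in 1. The same libraries had the lowest Hes5 in 14 groups and the highest in 3. For Hey1, replicate 3 was highest in 12 of 22 groups and lowest in 1, and for Id3 replicate 2 was lowest in 15 of 21 groups and highest in 1. These counts are descriptions with no test, and the tests with a replicate block are given above.

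Gpr153, the gene with the profile most like that of Hes3, is also its neighbour. The annotation places it at chr4:152274112-152285337 on the opposite strand, 634 bases from Hes3 with 0 genes between them. Gpr153 averaged 335 ± 169 normalised reads in p0-1 on day 4 (SD, n = 5), 212 ± 159 on day 5 and 174 ± 118 on day 6 (n = 6 each), and 62.1 ± 78.5 in p3 on day 4 (n = 4). In p3 on day 6, where Hes3 was at 0 in all but 1 library, Gpr153 averaged 152 ± 106 (n = 5). Strand use in the counting is not stated, and whether reads of one gene were counted for the other was not tested.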
